A study of Arabidopsis thaliana with 4 samples.

Results

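Sites of LEC1-FLAG that lay inside protein-coding genes, away from the ends of any neighbouring gene, numbered 650 of 3125 replicate 1 peaks found again in replicate 2 (20.8%). A peak counted as found again when it overlapped a replicate 2 peak by at least 50% of the shorter of both. Its summit, the position of highest pileup, had to lie within a protein-coding gene of the gene table and not within 1000 bp outside any other protein-coding gene. These interior-only peaks lay in 634 of 27444 nuclear protein-coding genes, 2.31% of them. The remaining 2475 shared peaks had 1419 summits within 1000 bp outside a gene and in none, 522 in a gene but close to another, and 534 farther than 1000 bp from any gene.

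The chromatin came from developing Arabidopsis thaliana seeds of lec1-4 mutants that carried pLEC1:LEC1-FLAG, a FLAG-tagged LEC1 under the promoter of LEC1 itself, and it was precipitated with an antibody against FLAG. Plants grew at 22°C in 16 h of light and 8 h of dark. The labels give the stage as mature seed, whereas the title of the series names embryo expansion. There were 2 ChIP libraries and 2 libraries of input chromatin of the same genotype, and the submitters call the replicates biological. No FLAG precipitation from untagged plants was among the samples, so antibody background was not separated from binding by LEC1-FLAG at any gene named here. Signal from different seed tissues was not told apart either.

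LEC1 is an NF-YB subunit that replaces the common subunits of the NF-Y complex in embryos. NF-YB and NF-YC form a dimer with a histone-like fold, and NF-YA gives the trimer its recognition of the CCAAT element in DNA, usually near the start of genes. In seeds LEC1 acts with the B3 factors ABI3, FUS3 and LEC2 and with bZIP factors to switch on maturation genes.

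Replicate 1 had 13894 nuclear peaks from 4454133 ChIP tags, and replicate 2 had 3361 from 4493099, so the shorter list bounded the number of shared peaks. Each peak carries the authors' own values, namely a pileup, which counts the extended ChIP fragments that cross the summit, and a fold of that pileup over the local input background. The replicates were called separately, with different extension lengths and input depths, and their folds are therefore set side by side. Peaks of a library are not replicates of a condition, so differences between classes of peaks are given without a test. Intervals on folds are 95% exact Poisson intervals of the ChIP pileup and leave out the counting error of the input.

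The first question was whether interior-only peaks were found again as often as others. Of 3909 interior-only replicate 1 peaks, 650 had a replicate 2 partner (16.6%, 95% Wilson interval 15.5 to 17.8), against 22.5% of all replicate 1 peaks and 24.8% of the 9985 peaks of the other classes (24.0 to 25.6). Peaks in a gene but close to another had a share of 16.3%, near that of the interior-only class, while peaks within 1000 bp outside a gene had 28.5% and those far from genes 29.7%. Interior-only replicate 1 peaks were also weaker than the other classes pooled, with a median fold of 3.46 against 4.00. Peaks in a gene but close to another were about as weak, at 3.48. Those within 1000 bp outside a gene had 4.27 and those far from genes 4.22. Interior-only peaks made up 37.2% of the lowest of 10 equal fold classes of replicate 1 peaks and 22.7% of the highest.

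Peaks of like fold were compared next, with the other classes pooled. In the highest class, 286 of 315 interior-only peaks had a partner (90.8%, 87.1 to 93.5), against 94.7% of 1075 others (93.2 to 95.9). In the next class the shares were 53.2% for interior-only peaks and 60.4% for the others, and in the one below it 25.5% for interior-only peaks and 34.3% for the others. The interior-only share was the lower of both in every class but the lowest, where it was 1.35% against 1.15% with overlapping intervals. Seen from replicate 2, 646 of its 670 interior-only peaks (96.4%) were shared, beside 3182 of all its 3361 peaks. The other classes of replicate 2 peaks had similar shares. These were 98.6% in a gene but close to another, 93.7% within 1000 bp outside a gene and 91.8% far from genes.

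**Figure D1:**
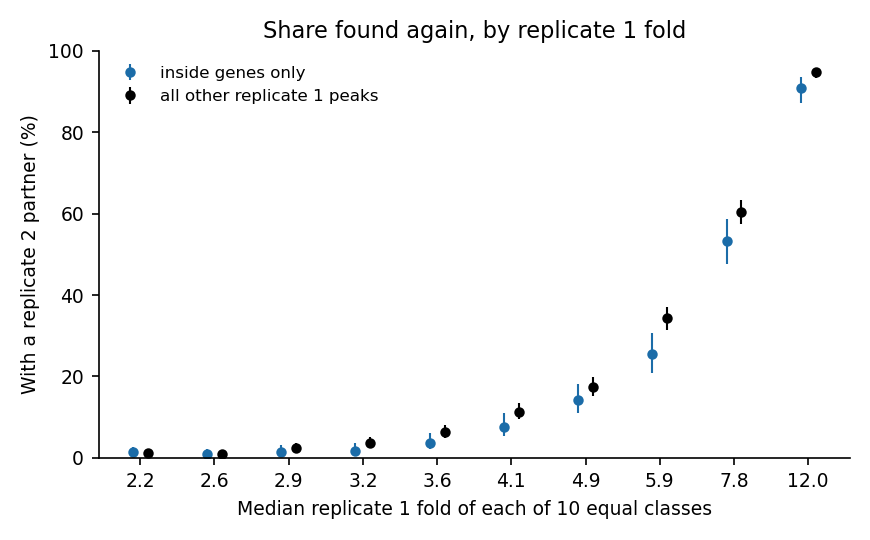
Share of replicate 1 peaks with a replicate 2 partner (vertical axis, %) in 10 equal classes of all replicate 1 peaks ordered by fold (horizontal axis, median fold of each class). Blue points are interior-only peaks and black points all other replicate 1 peaks, with 95% Wilson intervals, and in the highest class the shares are 90.8% and 94.7%.

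Depth was measured from the summit to the nearer end of its gene, since strand was not used here and the start of a gene could not be told from its end. Members lay close to gene ends: the median depth was 249.5 bp, with the middle 50% of members between 108 and 596 bp and the deepest at 2569 bp. The replicate 2 summits of the same pairs had a median depth of 225.5 bp. Up to 200 bp deep were 288 members (44.3%), 194 were deeper than 500 bp, 77 deeper than 1000 bp and 9 deeper than 2000 bp. Along the gene, the median summit lay at 10.96% of the gene's length from the nearer end, and 308 members (47.4%) lay in the outer 10%.

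The bases open to the rule, those within a protein-coding gene and not within 1000 bp outside another, came to 43.4 Mb and had a median depth of 918 bp (middle 50%, 462 to 1440). The outermost 50 bp held 75 members, which is 11.5% of members on 2.61% of these bases, or 66.2 members per Mb. From 51 to 200 bp there were 213 members at 61.2 per Mb, and from 201 to 500 bp 168 members at 23.4 per Mb. Density was lower again, 9.83 per Mb, between 501 and 1000 bp, with 117 members, and lowest, 3.90 per Mb, beyond 1000 bp, where 77 members (11.8%) stood on 45.4% of the bases. The density of members was thus lower at every step of depth. Bases in which short reads cannot be placed were not taken out of these counts.

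The same gradient was present before sharing was asked for. All interior-only replicate 1 peaks had 338 per Mb in the outermost 50 bp and 24.3 per Mb beyond 1000 bp. Those without a partner had a median depth of 296 bp (126 to 622.5), somewhat deeper than the members. The share with a partner was 19.6% in the outermost 50 bp (15.9 to 23.9) and 16.0% beyond 1000 bp (13.0 to 19.6), and was lowest, 14.3% (12.5 to 16.5), from 201 to 500 bp.

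**Figure D2:**
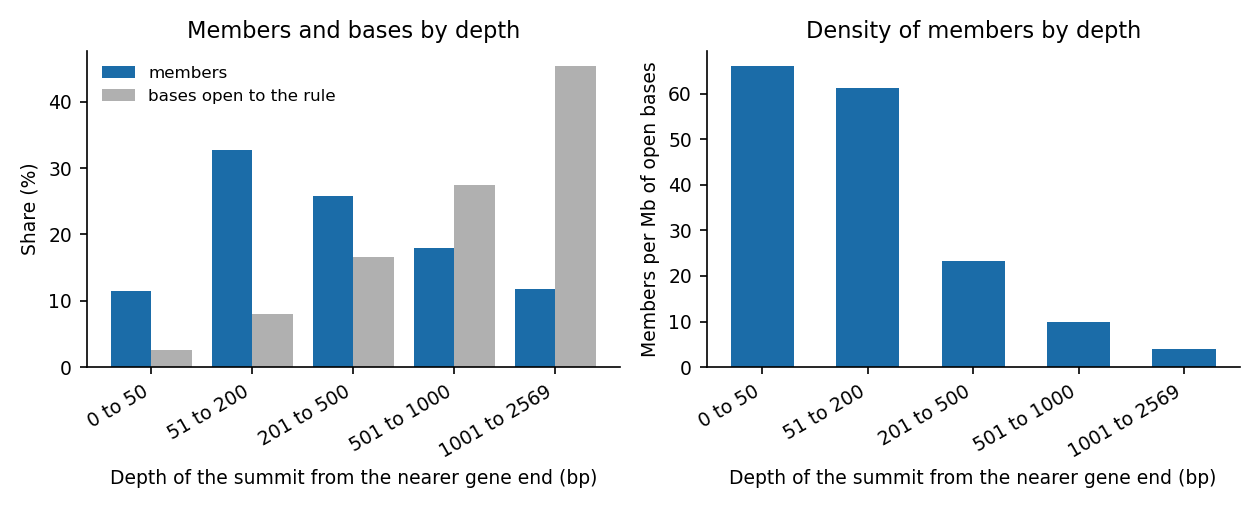
Left, the share (%) of the 650 members in blue and of the bases open to the rule in grey, by depth of the summit from the nearer gene end in bp. Right, members per Mb of open bases in the same depth classes, which run from 66.2 in the outermost 50 bp to 3.90 beyond 1000 bp.

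Among members, depth and signal showed no relation. Spearman's rho between depth and fold was 0.00499 in replicate 1 and -0.00956 in replicate 2 (n = 650 members of shared libraries, given as a description). In the outermost 50 bp replicate 1 had a median fold of 8.46 and replicate 2 one of 3.45, and beyond 1000 bp these were 8.89 and 3.62. Deep sites were fewer per base, with folds in the range of the shallow ones.

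The deepest member lay in RXW8 (AT1G58520), 2569 bp from the nearer end of a gene of 8896 bp, with a fold of 10.8 in replicate 1 and 2.35 in replicate 2. CSLA02 (AT5G22740), for a mannan synthase of the cell wall, had its summit 2453 bp deep in a gene of 5502 bp, with 11.4 and 7.51. The homeobox gene KNAT2 (AT1G70510), of the class I KNOX family that acts in meristems, held 2 members in its 6394 bp, at 2382 bp (9.24 in replicate 1 and 4.21 in replicate 2) and 1714 bp (8.68 and 2.25). ABCG25 (AT1G71960), which encodes an exporter of abscisic acid, had a member at 2359 bp with 7.09 and 3.25. NRT1.5 (AT1G32450), for a nitrate transporter of roots, had a member at 2175 bp with 8.89 and 3.31. Folds of the 5 deepest ran from 7.09 to 11.4 in replicate 1, and CSLA02 was the highest of them in both replicates.

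Genes that held a member were longer than the average gene and shorter than the gene at an average open base. Their median length was 2560.5 bp (middle 50%, 1848 to 3474), against 2078 bp for all protein-coding genes (1323 to 3030). Weighted by the bases open to the rule, the median length was 3250 bp (2299 to 4707). Genes of interior-only replicate 1 peaks without a partner had a median of 2498 bp, and genes around shared peaks close to another gene had 2318 bp.

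Per gene, the share with a member was lowest in short genes. It was 0.571% of genes up to 1000 bp, 2.03% between 1000 and 2000 bp, 2.75% between 2000 and 3000 bp, 3.35% between 3000 and 4000 bp, 3.54% between 4000 and 5000 bp and 2.87% above that, beside 2.31% over all genes. Per open base, genes of 1000 to 2000 bp had the most, 27.1 members per Mb, and genes over 5000 bp the fewest, 5.03 per Mb. Median depth varied little with length, between 177 bp in the shortest class and 290 bp in the longest, and rho between depth and gene length was 0.128 (n = 650). Long genes had many open bases in their middle and few members there.

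**Figure D3:**
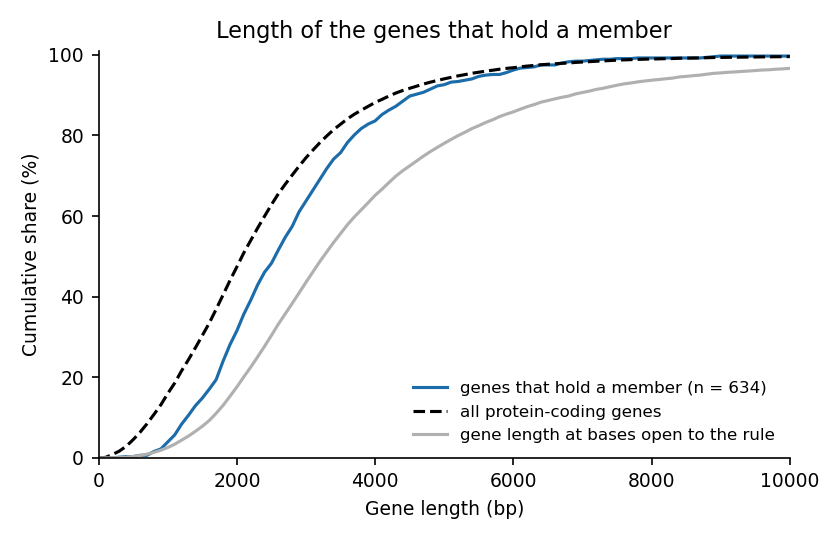
Cumulative share (%) of genes by gene length in bp, for the 634 genes that hold a member (blue) and all protein-coding genes (dashed), and of the bases open to the rule by the length of their gene (grey). The medians are 2560.5 bp, 2078 bp and 3250 bp.

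The longest gene with a member was AT4G39420, at 16023 bp, with a summit 176 bp from an end and folds of 5.22 in replicate 1 and 2.36 in replicate 2. CHR4 (AT5G44800), a chromatin remodeller gene of 10631 bp, had 5.53 and 2.48 at a depth of 321 bp. The myosin gene ATM1 (AT3G19960), of 8953 bp, had 18.6 and 7.18 at 232 bp, the highest folds among the 5 longest genes. In AT1G66880, of 8767 bp, the summit was 26 bp deep with 7.74 and 3.88, and RXW8 was described above. Apart from RXW8, the summits of the longest genes lay in the outer 321 bp. In the shortest genes the peak took up most of the gene: it covered 75.6% of AT4G29103 (213 bp, folds 3.10 and 2.60), 93.8% of AT1G21395 (387 bp, 13.1 and 3.41) and 86.3% of AT4G26460 (534 bp, 14.5 and 3.86).

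The members differed little in signal from other shared peaks, apart from a few. The median fold was 8.61 in replicate 1 (middle 50%, 6.09 to 11.7) against 8.44 in the other 2475, and 3.34 in replicate 2 (2.84 to 4.17) against 3.43. Median pileups in members were 83 fragments in replicate 1 and 25 in replicate 2, against 77 and 25 in the others. The local background, with the 1 that the peak caller adds, had a median of 9.23 at members and 8.98 elsewhere in replicate 1. The ratio of the replicate 2 to the replicate 1 fold had a median of 0.402 against 0.419, and across members the folds of both replicates had a rho of 0.519 and a Pearson r of 0.52 on the log2 scale, against 0.578 and 0.59 for the others. These pairs were all called in both lists, which selects for signal in each.

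In shape, members were wider in replicate 1 and no wider in replicate 2. Their median width was 610.5 bp against 530 bp for other shared peaks in replicate 1, and 271 bp against 286 bp in replicate 2. Several summits were present in 140 members (21.5%) and in 16.4% of the others, and 62 members (9.54%) exceeded 1000 bp, against 5.90%. Peaks in a gene but close to another were as wide, at 636 bp. Summits of both replicates lay a median of 36.5 bp apart at members and 35 bp elsewhere, and in 399 members (61.4%) they lay within 50 bp. The replicate 2 summit was in the same gene for 593 members (91.2%) and outside it for 57.

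A member was not always an interior peak in its whole extent. The replicate 1 peak stayed within the gene in 332 members (51.1%, Wilson 47.2 to 54.9) and ran past an end in 318. Up to 200 bp deep, 22 peaks stayed within the gene, against 190 of the 194 deeper than 500 bp. The peak covered a median of 21.3% of the gene (middle 50%, 12.3 to 34.5), more than 50% in 80 members and more than 75% in 19. At 21 members the summit lay in 2 overlapping protein-coding genes, and the deeper position was used. At 20 the summit also lay in a gene of another type, 16 of them long non-coding RNA genes.

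Peaks at the gene's own end were counted apart from the members. For member genes, the members and their replicate 2 partners were left out, whereas the shares of all genes took in every peak. The shares are therefore not like for like, and whether end peaks are equally frequent was not tested. A separate peak with its summit up to 1000 bp outside or 200 bp inside an end was present for 254 of 634 member genes in replicate 1 (40.1%, against 42.4% of all protein-coding genes). In replicate 2 it was present for 76 (11.99%, against 12.05% of all genes), and in both lists for 72 (11.4%, against 11.7%). Of the 189 genes with a member deeper than 500 bp, 91 had such a peak in replicate 1 and 31 in both lists. These were larger shares than in the 634 member genes and than the 42.4% and 11.7% of all genes. Members less than 200 bp deep had their summit in the end window and were left out of the count. Summits deeper than 500 bp lay outside that window. The deep genes and the 634 are therefore not like for like either, and nothing is concluded from the difference.

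The strongest members had the highest folds of replicate 2. There, 5 members, the pair at FUS3 and those at ABF3, AT5G42050 and MCA1, had a higher fold than any of the other 2475 shared peaks, whose highest was 11.01. In replicate 1 the highest fold was 27.9 among members and 30.4 among the others.

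**Figure D4:**
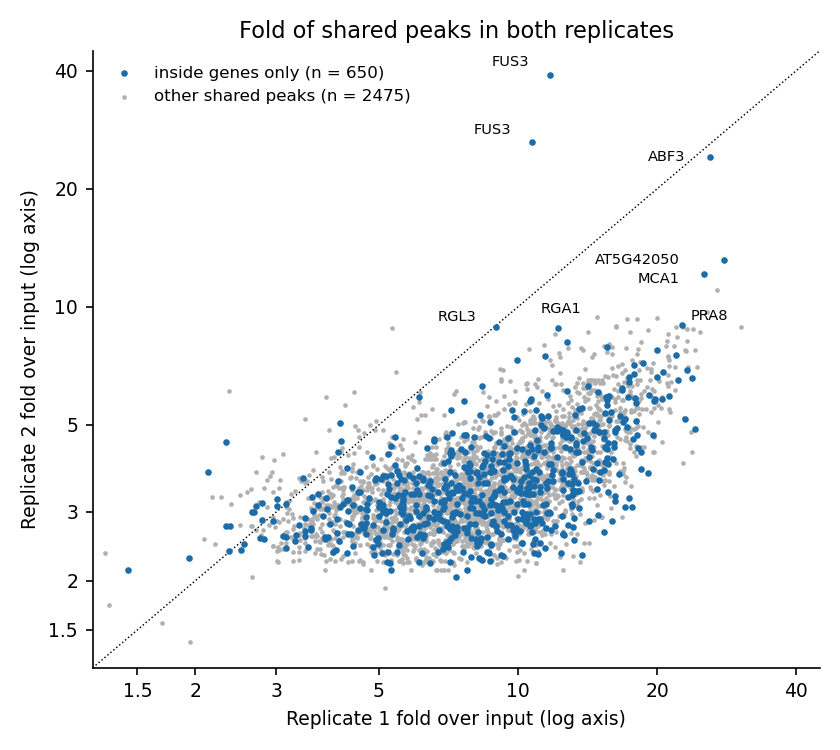
Fold over input of shared peaks in replicate 1 (horizontal, log axis) and replicate 2 (vertical, log axis), with the 650 interior-only peaks in blue and the other 2475 in grey. The dotted line marks equal folds, and both FUS3 peaks lie above it, at 11.7 and 39.1 and at 10.7 and 26.3.

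FUS3 (AT3G26790), the B3 factor that drives reserve storage in the embryo, held 2 members. At the peak on chromosome 3 from 9853965 to 9854716 121 fragments were piled up in replicate 1 and 293 in replicate 2, with folds of 11.7 (9.75 to 14.0) and 39.1 (34.8 to 43.8). At the peak from 9854913 to 9856400 there were 105 fragments in replicate 1 and 230 in replicate 2, with folds of 10.7 (8.77 to 12.9) and 26.3 (23.1 to 29.9). The replicate 2 pileup was 2.42 times that of replicate 1 at one peak and 2.19 times at the other, while the median member had a ratio of 0.317. The summits lay 388 and 580 bp from the nearer ends of a gene of 2385 bp, and the replicate 2 summits were 5 and 3 bp from those of replicate 1. Between them, a summit of the wider peak had 50 fragments in replicate 1 and 149 in replicate 2. At the gene end the order was the other way, with 55 fragments in replicate 1, 18 bp outside the gene, and 24 in replicate 2, 38 bp outside. Replicate 2 was thus the higher inside FUS3 and replicate 1 at its end.

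ABF3 (AT4G34000), a bZIP factor of abscisic acid responses, had the highest smaller fold of all members. Its peak on chromosome 4 from 16295936 to 16297644 covered 57.9% of the gene, with its summit 1177 bp deep. The pileup was 234 fragments in replicate 1 and 248 in replicate 2, with folds of 26.0 (22.8 to 29.6) and 24.1 (21.2 to 27.3). The other summits of that peak had 217 and 169 fragments in replicate 1 and 237 and 209 in replicate 2. At the gene end, 13 and 5 bp outside, the pileup was 194 in replicate 1 and 55 in replicate 2. At this interior peak replicate 2 was thus the higher or nearly equal, and at the gene end replicate 1 was far the higher, as at the median member. Weaker replicate 1 summits elsewhere in the gene, with 33 and 21 fragments, had no replicate 2 summit beside them.

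DELLA proteins are repressors of gibberellin responses, and 3 of the 5 genes held a member, beside 2.31% of all protein-coding genes. RGA1 (AT2G01570) had a peak of 2028 bp over 87.3% of the gene, with 96 fragments in replicate 1 and 82 in replicate 2 and folds of 12.2 (9.89 to 14.9) and 8.84 (7.06 to 11.0). In replicate 2 its partner was 3740 bp long, carried 12 summits and ran 1819 bp past the end of the gene, with pileups of 37 to 48 outside against 27 to 82 inside. RGL3 (AT5G17490) had a peak of 1843 bp over 81.6% of the gene, with 71 fragments in replicate 1 and 72 in replicate 2 and folds of 8.94 (7.01 to 11.2) and 8.88 (6.98 to 11.2). RGL2 (AT3G03450) differed from both, with a peak of 301 bp at a depth of 126 bp, 81 fragments in replicate 1 and 29 in replicate 2, and folds of 7.88 and 3.65. GAI and RGL1 had interior-only peaks in replicate 1 alone, at 2.07-fold for GAI and up to 3.36-fold for RGL1. So 2 DELLA genes had signal over most of their length in both replicates, and the other 3 did not.

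**Figure D5:**
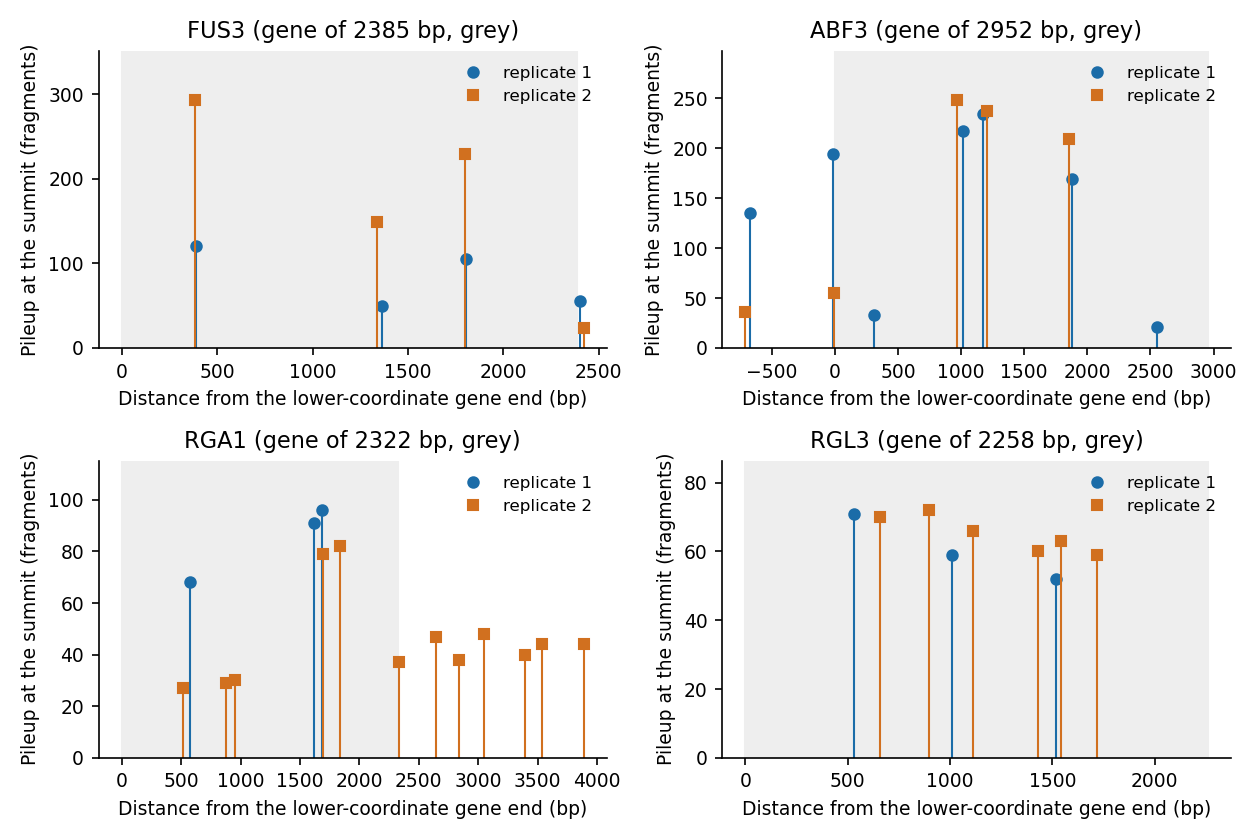
Pileup (fragments) at each summit of the peaks that overlap FUS3, ABF3, RGA1 or RGL3, by distance in bp from the lower-coordinate end of the gene, shown in grey, with replicate 1 in blue and replicate 2 in orange. In FUS3 the interior summits reach 121 in replicate 1 and 293 in replicate 2, in ABF3 234 and 248, in RGA1 96 and 82, and in RGL3 71 and 72.

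A replicate 2 fold over 8 together with a ratio of folds over 0.7 was met by 5 of the 650 members, namely those at FUS3, ABF3, RGL3 and RGA1, and by 2 of the other 2475 shared peaks. That limit was chosen after the values were seen. Of these 2, the peak 463 bp wide on chromosome 2 from 258881 to 259343 shares the long replicate 2 peak of RGA1, and the other lay on chromosome 1 from 2213870 to 2214525 with 12.01 and 8.51. The replicate 2 pileup exceeded that of replicate 1 in 8 members (1.23%) and in 14 others (0.566%). Besides FUS3, ABF3 and RGL3 these were FRD3, AT1G02380, AT3G41762 and SKP2B, an F-box protein gene (51 in replicate 1 and 59 in replicate 2).

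The further members with the highest smaller fold followed the common order, with replicate 1 above replicate 2. AT5G42050 had the highest pileup of any member in replicate 1, 289 fragments, against 93 in replicate 2, with folds of 27.9 (24.8 to 31.3) and 13.2 (10.7 to 16.1) and a peak over 74.0% of the gene. MCA1 (AT4G35920), for a calcium channel of the plasma membrane, had 218 and 90 fragments and folds of 25.3 and 12.1, at a depth of 279 bp. PRA8 (AT3G13720), of the prenylated Rab acceptor family, had 201 and 63 fragments and folds of 22.7 and 9.01. AT3G19100 had 12.8 and 8.14, and CM1 (AT3G29200), for a chorismate mutase of aromatic amino acid synthesis, 15.6 and 7.89 at a depth of 36 bp. GATL3 (AT1G13250), of a family of galacturonosyltransferase-like proteins, had 229 fragments in replicate 1 but 47 in replicate 2.

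At the other limit of the ratio, FRD3 (AT3G08040), a citrate transporter gene of iron movement, had 2.33 in replicate 1 and 4.52 in replicate 2, and AT1G02380 had 2.14 and 3.80. AT3G41762 had 1.43 and 2.13 over backgrounds of 90.3 and 64.3 fragments, the highest background of any member, and the nearest other protein-coding gene was 32471 bp away. AT2G01008 was the only other member over 20 in replicate 1 background, at 34.5, with folds of 1.94 and 2.29. The lowest ratios were those of UGT71B1 (AT3G21750), for a UDP-glycosyltransferase, with 13.7 in replicate 1 and 2.33 in replicate 2, AT1G53380 with 15.4 and 2.67, and PFK2 (AT5G47810), for a phosphofructokinase, with 17.6 and 3.09.

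Among 8 central regulators of seed maturation, 4 held a member, beside 2.31% of all protein-coding genes. With members counted too, 7 of the 8 had a summit at a gene end in both lists, beside 11.7% of all genes. Besides FUS3, ABI3 (AT3G24650), the B3 factor of abscisic acid responses, had 139 fragments in replicate 1 and 32 in replicate 2 at a depth of 320 bp in a gene of 3816 bp, with folds of 16.2 (13.6 to 19.1) and 4.78 (3.32 to 6.69). This interior peak was higher than the ABI3 peak 622 bp outside its end in replicate 1, which had 12.4, and close to it in replicate 2, 4.13. WRI1 (AT3G54320), which switches on fatty acid synthesis, had 95 and 31 fragments and folds of 8.73 and 3.79 at 137 bp. NF-YB6 (AT5G47670), known as L1L and the nearest relative of LEC1, had 99 and 26 fragments and folds of 11.9 and 3.59 at 107 bp, where a further protein-coding gene overlapped. LEC1 and LEC2 had interior-only peaks in replicate 1 alone, at 2.32 and 3.21, and the signal of native LEC1 was not separated from that of the transgene. ABI5 and DPBF2, the gene of bZIP67, had shared peaks outside the gene and no interior-only peak.

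The bZIP genes of group A, which act in abscisic acid responses, had a member in 4 of 9, beside 2.31% of all protein-coding genes. That list and the other abscisic acid lists given next were written after member names and values had been seen. After ABF3 came EEL (AT2G41070) with 12.5 in replicate 1 and 4.85 in replicate 2, ABF4 (AT3G19290) with 13.8 and 4.54, and ABF1 (AT1G49720) with 11.8 and 4.37. Their depths were 517, 102 and 89 bp, and the EEL summit also lay in an overlapping protein-coding gene. Genes of abscisic acid synthesis and breakdown had a member in 3 of 9: the dioxygenase genes NCED9 (AT1G78390; 8.36 and 6.28, 66 bp deep) and NCED3 (AT3G14440; 7.25 and 2.67, 330 bp) and the hydroxylase gene CYP707A1 (AT4G19230; 6.22 and 3.62, 1336 bp). Of 9 clade A protein phosphatase genes, which hold back abscisic acid signalling, HAI1 (AT5G59220) alone had members, a pair with 8.01 and 3.08 at 138 bp and 6.89 and 3.06 at 818 bp. Within this pathway the replicate 1 summits of the interior sites thus ranged from the outer 66 bp to more than 1000 bp deep. At NCED9, the shallowest of them, the replicate 2 summit lay just outside the gene.

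The NF-Y genes, whose products form the complex that LEC1 joins, had a member in 4 of 36, beside 2.31% of all protein-coding genes. The NF-Y list, too, was written after member names and values had been seen. NF-YA2 (AT3G05690), for a DNA-binding subunit, had 207 fragments in replicate 1 and 34 in replicate 2, with folds of 24.1 (21.0 to 27.6) and 4.87 (3.41 to 6.75), at 612 bp and under a peak over 67.5% of the gene. NF-YC2 (AT1G56170) had 9.64 and 3.71 and NF-YA10 (AT5G06510) had 6.92 and 3.09, beside NF-YB6 above. The NF-YA family alone, which was set down in the design, had a member in 2 of 10 genes.

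Several families of auxin genes held members, beside 2.31% of all protein-coding genes. The auxin lists were written after member names and values had been seen. The receptor genes AFB2 (AT3G26810) with 15.6 in replicate 1 and 3.38 in replicate 2 and TIR1 (AT3G62980) with 11.1 and 2.88 were 2 of 6, at depths of 18 and 87 bp. The efflux carrier gene PIN4 (AT2G01420) had 13.8 and 4.02 at a depth of 284 bp. The kinase gene PID (AT2G34650), whose product directs PIN proteins, was 1 of 4 and held a pair, with 7.03 and 2.83 and with 6.92 and 2.49. The influx carrier gene LAX2 (AT2G21050) was 1 of 4, with 4.72 and 3.14 at 1283 bp. Of genes for homeobox factors of patterning, KNAT2 was 1 of 4 class I KNOX genes and PHB (AT2G34710; 4.11 and 5.05, 98 bp) 1 of 5 HD-ZIP III genes. PHB was among the 21 members (3.23%) with a higher fold in replicate 2, against 2.22% of other shared peaks.

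Genes of the photosystems and of Rubisco had a member in 8 of 52, beside 2.31% of all protein-coding genes. That list and the CSLA list below were written after member names and values had been seen. RCA (AT2G39730), for Rubisco activase, had 17.3 in replicate 1 and 5.88 in replicate 2, and PSB27 (AT1G03600) and PSB28 (AT4G28660), for photosystem II proteins, had 15.5 and 5.88 and 7.72 and 4.71. All but NPQ4 (AT1G44575), the photoprotection gene PSBS, with a summit 1478 bp deep, lay in the outer 362 bp. The CSLA family of mannan synthases had a member in 4 of 9, of which CSLA02 (2453 bp), ATCSLA09 (AT5G03760; 2099 bp, 9.50 and 3.92) and CSLA01 (AT4G16590; 1330 bp, 9.55 and 4.22) were deep and CSLA07 (AT2G35650; 178 bp, 10.4 and 3.33) was not.

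Further families are given by their counts. B-box genes had a member in 4 of 30, led by BBX31 (AT3G21890; 13.5 in replicate 1 and 5.47 in replicate 2). Aquaporin genes had 4 of 35, led by PIP3 (AT4G35100; 12.8 and 6.10), and arabinogalactan protein genes 4 of 31, led by AGP4 (AT5G10430; 7.02 and 4.66). JAZ repressor genes of jasmonate signalling had 2 of 12, CBF genes of the cold response 2 of 4, and ketoacyl-CoA synthase genes of very long fatty acids 2 of 21. WRKY genes had 4 of 71, NAC genes 5 of 99, glycosyltransferase genes of the UGT family 3 of 58 and cytochrome P450 genes 5 of 219, which is 2.28% and close to the 2.31% of all genes. All lists but the regulators and the NF-YA, DELLA and HD-ZIP III genes were drawn up after member names and values had been seen. Each of them holds at least 1 member for that reason, and their counts describe families without a test. Several families had more genes with a gene-end summit in both lists than genes with a member. These included 5 of 9 group A bZIP, 13 of 36 NF-Y and 18 of 52 photosystem and Rubisco genes, beside 11.7% of all genes. The order was the other way for DELLA (2 of 5), CSLA (3 of 9) and class I KNOX genes (0 of 4).

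Members were spread over all 5 chromosomes, with 165, 112, 134, 90 and 149 on chromosomes 1 to 5, or 18.4% to 23.8% of the shared peaks of each. In 16 genes there were 2 members, and no gene held 3. These 16 included FUS3, KNAT2, PID, HAI1 and GATL3. The member nearest to the limit of 1000 bp from another gene was at KIN2 (AT5G15970), a cold-induced gene, 1005 bp from KIN1, with 10.6 in replicate 1 and 4.45 in replicate 2, and the nearest shared peak beyond it was in AT1G56670, 1000 bp from AT1G56660, with 5.17 and 2.72. By overlap, FRD3 was the nearest inside the rule at 50.3% and a peak in TIC, a gene of the circadian clock, the nearest outside at 45.3%, with 6.67 and 3.11.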

How the data were processed

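Chromatin of developing seeds was assayed by ChIP-seq. Reads were aligned with BWA 0.7.12 to TAIR10, per the submitters' processing notes, and each ChIP library was set against the input of the same replicate with MACS2 2.1.0.20150420 at a q of 0.05, per the file headers, with fragments extended by 187 bp in replicate 1 and 149 bp in replicate 2 and input depths of 7578894 and 9646586 tags. The deposited pileup is the signal at a summit. The deposited fold is the ratio of pileup to local background, with 1 added to each. The deposited significance is given as −log10 of a p-value and of a q-value. The input libraries entered through these calls.

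Lines of equal start and end were joined, peaks paired and summits placed in Python 3.11.15 with numpy 2.4.6, pandas 2.3.3 and scipy 1.17.1. Where a member met 2 replicate 2 peaks (15 members), the partner of higher pileup was used. Local background is (pileup + 1) / fold. On simulated data, 8570 of 8570 planted positions and 1000 of 1000 planted pairs came out as made. The positions lay at genes far from any other and the paired peaks were of equal length. Close or overlapping genes and peaks of unequal length were thus not tried. Names, lengths and neighbours of genes came from RefSeq's table (assembly TAIR10.1). On each of the 5 chromosomes 40.4% to 45.7% of summits were within 200 bp of a gene end with no shift between peaks and genes, the highest share, against at most 19.9% with a shift. The 26 chloroplast peaks of replicate 2 were left out. Exons and sequences were not used here.

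The rule, the members and the lists were chosen with earlier results of these data known. Named are 8 maturation regulators, the 10 members of highest smaller fold, the 5 deepest, those in the 5 longest and 3 shortest genes, the 5 highest and 3 lowest fold ratios, the 3 highest replicate 1 pileups, up to 3 members per list and those at the limits of the rule. ABF1, CSLA07, GAI, RGL1, AT2G01008, SKP2B, NPQ4 and the 2 peaks outside genes set beside RGA1 were chosen after their values were seen. The NF-YA, DELLA and HD-ZIP III families and the regulators were set down in the design. The other of the 25 lists were written after member names and values had been seen, so their counts support nothing. A further gene of the efflux carrier list is not reported here. Alternatives were other overlaps, limits, summits and gene types and each replicate alone.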

Additional observations from a re-analysis of the deposited data

How the results depend on the processing

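No paired analysis was possible because the input libraries, which share the replicate numbers of the ChIP libraries, enter only through the deposited peak calls. Over 10 alternatives, 11 results gave 102 values beside the ones reported, of which 35 moved. The number of members was 264 with 50% of both peaks required, 134 at −log10 q of at least 10 and 339 with other genes kept 2000 bp away. Median depth was 193.5, 206 and 220 bp with 50% of both peaks, with −log10 q of at least 10 and with other genes at 500 bp, and 284 bp where the replicate 2 summit had to meet the same rule in the same gene (579 members). In the same order the median relative depth was 8.36%, 8.08%, 10.3% and 13.0%, and it was 11.2% with all gene types as other genes. Median gene length was 2740 bp with 50% of both peaks, 2570 bp at −log10 q of at least 10, 2500 and 2839 bp with other genes at 500 and 2000 bp, and 2591 bp with all gene types. At −log10 q of at least 10 the median replicate 1 fold was 13.3, the replicate 1 pileup 125.5, the share with a partner 8.19%, the share wholly within the gene 44.8% and the share of genes with a gene-end summit in both lists 2.26%. The share with a partner was 6.75% with 50% of both peaks and 14.8% with the replicate 2 summit under the same rule, where 56.5% lay wholly within the gene. With each replicate alone the number ran from 670 to 3909, median depth from 250.5 to 285 bp, relative depth from 11.3% to 13.2%, gene length from 2499 to 2550 bp and the share wholly within the gene from 66.5% to 67.2%. Replicate 1 alone gave a median fold of 3.46 and pileup of 31, and replicate 2 alone 3.31 and 24. The median length of member genes was above the 2078 bp of all genes under each alternative run. The median depth of members was also below the 918 bp of open bases. That value was counted under the main rule alone, although some alternatives change which bases are open. Shared members are bounded by the 3361 peaks of replicate 2, and the highest replicate 2 folds rest on a few genes.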
